A study of Sus scrofa with 4 samples.

Results

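Adipogenic induction was followed in stem cells from pig subcutaneous fat by setting the small RNA library of the induced culture beside that of the undifferentiated culture. These libraries are called SVSC MDI and SVSC, and they are 2 of the 4 samples in the series. They were chosen by their labels, and every feature of the 4 resources in the deposited tables was read: pig miRNA hairpins, Rfam families, a piRNA database and the Ensembl non-coding transcripts of Sscrofa9.61. Both cultures were primary vascular stem cells of subcutaneous adipose tissue at passage 1, kept in DMEM/F12 with 20% fetal bovine serum. SVSC received no inducer. SVSC MDI received 0.5 mM IBMX, a phosphodiesterase inhibitor that raises cAMP, with 5 mg/l insulin and 0.25 µM of the glucocorticoid dexamethasone. After 3 days the medium no longer held IBMX or dexamethasone, growth medium returned on day 6, and the culture was kept for a further 3 or 4 days. The other pair, IVSC and IVSC MDI, came from the same kind of cell out of back muscle with the same media but another plating density, and is set beside named features only. The sources used here do not say whether any of the cultures came from 1 animal, nor which harvest day applies.

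A miRNA is cut from a hairpin transcript by Drosha and Dicer. Either arm of the hairpin can be loaded into Argonaute, where the first bases of the mature strand pair with target mRNAs and lower their translation or stability. Small shifts in the cut sites give variants of a mature strand, called isomiRs. Insulin, glucocorticoid and cAMP signals together switch on C/EBP factors and PPARG in preadipocytes, and several miRNAs are known to promote this step, such as miR-143 and the miR-30 family, or to hold it back, such as miR-27, which targets PPARG. The same size range of RNA holds fragments of tRNA, rRNA, Y RNA and small nucleolar RNA. No sequence of these features was in the sources used, so features are given by name.

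There was 1 library in each group, so no test between groups was possible and no p-value is given. Each ratio compares 2 libraries and therefore contains whatever set their animals or preparations apart. The libraries were of unequal depth, with 25725723 reads in named features in SVSC and 5166494 in SVSC MDI, of which 17937121 and 2573249 were miRNA reads with hairpin copies counted once. A feature at 0 could lie as high as 0.167 CPM (counts scaled to a common total of miRNA reads) in SVSC and 1.17 CPM in SVSC MDI, which is what 3 reads amount to. Ranges in parentheses are exact 95% Clopper-Pearson counting intervals. Like these floors, they account for counting error alone, because amplified reads that carry no molecular identifier can be copies of each other. In bulk cultures, fewer cells of a type and less RNA per cell cannot be told apart.

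miRNAs moved in both directions after MDI. Among 146 miRNAs that reached 10 CPM in either library, 50 (34.2%) rose and 32 (21.9%) fell, where these words stand for a ratio of at least 2-fold with an interval that excludes 1. The other 64 did neither. Calls were made at all levels of abundance: among 48 miRNAs at 1000 CPM or more in the higher library, 15 rose and 12 fell, with a 4-fold or larger step in 5 that rose and 3 that fell. Of 55 miRNAs between 100 and 1000 CPM, 19 rose and 8 fell, with 9 rises and none of the falls at 4-fold or more. Of 43 between 10 and 100 CPM, 16 rose and 12 fell, with 9 and 6 at 4-fold or more. The balance of directions rests on the total used for scaling. miR-21 did not reach 2-fold here (ratio 0.596), though it was a fall under the other 4 scalings below, and it held 44.1% of the miRNA reads of SVSC and 26.3% of those of SVSC MDI, and the median log2 ratio over all 146 was 0.41. Scaling to all reads in named features moved each log2 value by -0.49, which left 33 rises and 44 falls. TMM factors shifted the median by -0.50 (36 rises, 45 falls), DESeq2 size factors by -0.43 (38 and 42), and leaving miR-21 out of the total by -0.40 (40 and 42). Rises thus made up 61.0% of the calls under the first scaling and between 42.9% and 48.8% under the others. Calls common to all 5 scalings covered 33 of the 50 rises and 31 of the 32 falls. Each of the other 4 scalings moved every log2 value down by a constant, between -0.40 and -0.50. No called miRNA could therefore turn its sign, and a fall could be lost only at the 10 CPM minimum. Only the count of rises kept is thus informative on scaling.

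**Figure D1:**
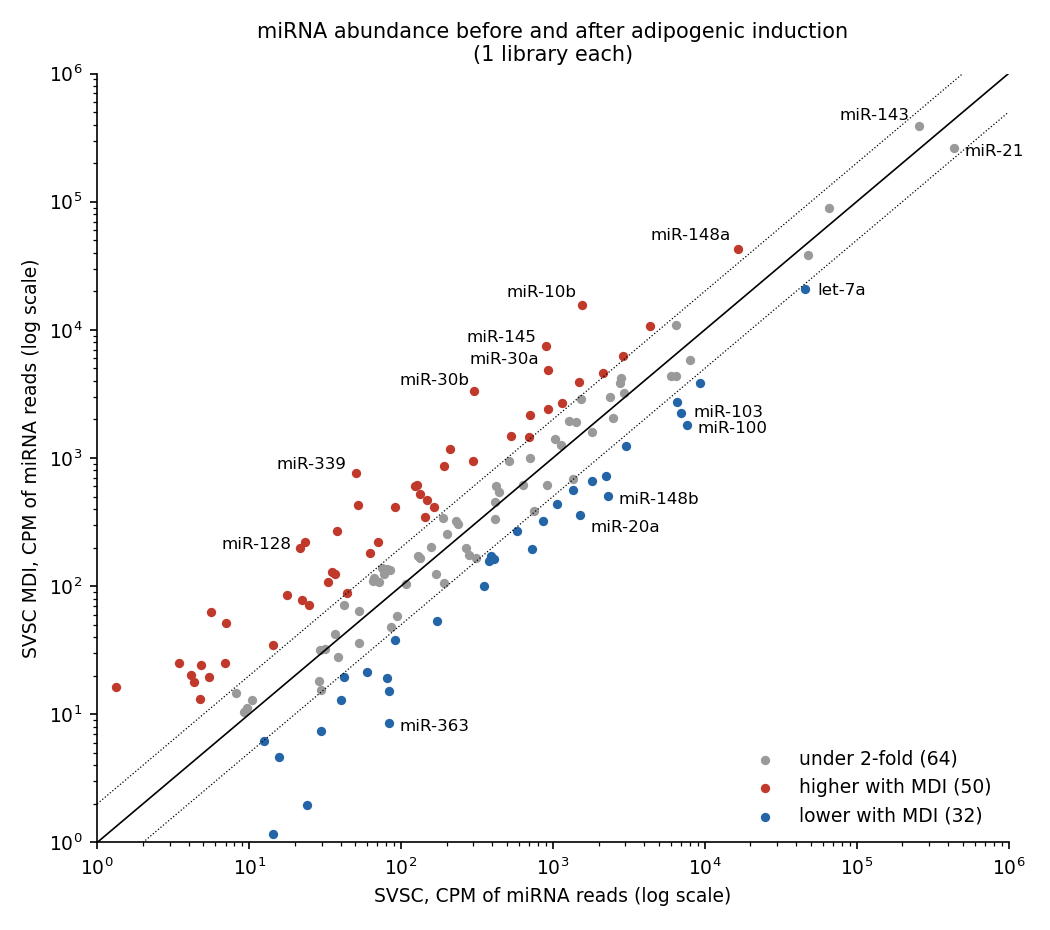
Level of each of the 146 compared miRNAs in SVSC (x axis) and SVSC MDI (y axis), in CPM of miRNA reads on log axes, 1 point per miRNA and 1 library per axis. Red points are the 50 that rose, blue points the 32 that fell and grey points the 64 others, and the calls lie over the whole range of levels.

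Among miRNAs at 100 CPM or more in the higher library, miR-339 rose furthest, from 906 to 1967 reads, a 15.1-fold difference (14.0 to 16.4). miR-10b, which lies in the HOXD cluster, had 27732 reads in SVSC and 39867 in the shallower SVSC MDI library, or 1546 and 15493 CPM, and rose 10.0-fold (9.87 to 10.2). Its relative miR-10a, of the HOXB cluster, stood at 640 and 621 CPM (ratio 0.971). miR-145, a marker of smooth muscle cells that is reported to hold back adipogenesis, had 16051 and 19146 reads and rose 8.31-fold (8.14 to 8.49). Rises of similar size were seen for miR-128 (416 and 565 reads, 9.47-fold), miR-505 (937 and 1109 reads, 8.25-fold) and miR-193a (681 and 688 reads, 7.04-fold), the last being linked to brown fat together with miR-193b and miR-365. In the muscle-derived pair the ratio of MDI to untreated was 1.76 for miR-10b, 1.56 for miR-339 and 1.30 for miR-128, and 5.30 for miR-145.

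Members of 1 family went separate ways. The miR-30 family is reported to promote adipogenesis by lowering RUNX2, a regulator of bone formation. miR-30a had 16749 and 12486 reads, or 934 and 4852 CPM, and rose 5.20-fold (5.08 to 5.32). miR-30b rose from 304 to 3328 CPM, 11.0-fold (10.6 to 11.3), and miR-30c from 211 to 1176 CPM, 5.57-fold (5.31 to 5.84). miR-30d fell from 9264 to 3876 CPM, 2.39-fold (2.34 to 2.44), and miR-30e stood at 7936 and 5826 CPM (ratio 0.734). The members with the fewest reads in SVSC were thus those that rose, and the summed level of the family was 18648 CPM in SVSC and 19059 CPM in SVSC MDI. All 3 rises were also seen in the muscle pair, where miR-30d had a ratio of 1.42.

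The miR-148 and miR-152 family showed the same divergence. miR-148a, which is reported to promote adipogenesis by lowering WNT1, had 296789 and 110765 reads and rose 2.60-fold (2.58 to 2.62), a rise that was below 2-fold under each of the other 4 scalings. miR-148b fell from 2306 to 504 CPM, 4.57-fold (4.33 to 4.83), and miR-152 from 6591 to 2733 CPM, 2.41-fold (2.35 to 2.47). miR-148b and miR-152 also fell in the muscle pair, while the ratio for miR-148a there was 0.683. Outside this family, miR-103 and miR-107, known for their effect on insulin sensitivity, both fell: miR-103 from 6981 to 2256 CPM, 3.09-fold (3.01 to 3.18), and miR-107 from 91.0 to 37.7 CPM, 2.41-fold (1.97 to 2.99). In the muscle pair neither passed 2-fold, with ratios of 1.02 and 0.594. In the miR-99, miR-100 and miR-125 families, miR-99a rose 3.98-fold and miR-125a 4.85-fold, whereas miR-100 fell from 7594 to 1814 CPM, 4.19-fold (4.07 to 4.31). The muscle pair had a ratio of 0.947 for miR-100.

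Sets of miRNAs listed by reported role did not go 1 way. Of 17 compared miRNAs reported to promote adipogenesis, 7 rose and 6 fell, where 50 rose and 32 fell of all 146, and the median log2 ratio was 0.44 against 0.41. The rises besides those above were miR-146b (3.23-fold), miR-210 (3.40-fold), a target of the hypoxia response, and miR-92a (3.20-fold). The falls included miR-320 (3.47-fold), miR-17 and miR-20a. Of 18 reported to inhibit adipogenesis, 3 rose and 4 fell, with a median of 0.01 against the same 0.41. The 4 that fell were miR-130a (2.25-fold) and miR-130b (3.75-fold), which target PPARG, with miR-363 and let-7a. miR-27a and miR-27b, which also target PPARG, were at ratios of 1.69 and 1.38. In the let-7 family, which lowers HMGA2, let-7a fell 2.19-fold (2.18 to 2.21), and let-7e had a ratio of 2.63 that was below 2-fold under the other 4 scalings. The remaining 5 of 7 compared members had neither call. Of 5 compared miRNAs linked to brown fat, 4 rose, where 34.2% of all compared miRNAs rose, and their median log2 ratio was 2.82. The rises included miR-133a and miR-133b, which skeletal muscle also makes, and miR-365 had neither call (ratio 1.83). The list does not part miRNAs that favour brown fat from any that oppose it, so no direction is read from it. miR-133b, with 24 and 42 reads, was called under 4 of the 5 scalings.

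Neighbouring miRNAs can be cut from 1 primary transcript, so each miRNA was set beside its neighbours. Positions came from the RefSeq annotation of Sscrofa11.1, a later assembly than that of the files, and served only to find which loci lie within 10 kb of each other. Of 189 miRNAs 161 were matched by name. There were 25 neighbourhoods of 2 or more compared miRNAs, which held 53 of the 146. In 8 of them no member had a call, in 9 members rose or had no call, and in 3 members fell or had no call. All members rose in 1 (miR-425 and miR-191 in DALRD3) and all fell in 1 (let-7a and miR-100). Rises and falls stood side by side in the remaining 3. Since 11 of these 53 miRNAs have more than 1 locus, reads of a multi-copy miRNA could not be placed at 1 neighbourhood.

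Of these 3, the neighbourhood of miR-30d and miR-30b holds no miRNA with a copy in another one: miR-30d had 30.5 times the reads of miR-30b in SVSC and 1.16 times in SVSC MDI. In the miR-17-92 cluster, known as an oncogenic locus that is active in dividing cells, miR-17 fell from 1059 to 441 CPM, 2.40-fold (2.26 to 2.55), and miR-20a from 1513 to 357 CPM, 4.24-fold (3.97 to 4.53). The miR-20a fall is one of reads over its whole hairpin. Its reads equal to the annotated mature sequence, scaled to the total of such reads, were higher in SVSC MDI. miR-92a rose from 299 to 955 CPM, 3.20-fold (3.05 to 3.36). miR-19a (ratio 2.01) and miR-19b (ratio 2.39) were also called as rises, but only under scaling to miRNA reads, and miR-18a stood at 0.727. In the paralogous cluster on chromosome X, miR-363 fell from 1504 to 22 reads, 9.81-fold (6.45 to 15.7), and miR-106a from 533 to 19 reads, 4.02-fold (2.55 to 6.74). Copies of miR-19b and miR-92a lie in the same cluster, which shares their reads with miR-17-92. In the muscle pair, miR-20a, miR-363 and miR-106a fell as well, and no member of either cluster rose.

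Partial divergence was seen in further neighbourhoods. miR-145 rose while miR-143, from the same primary transcript, held 25.6% of the miRNA reads in SVSC and 39.0% in SVSC MDI, a ratio of 1.53. These miR-143 reads were counted over its whole hairpin. miR-30c rose beside miR-30e inside NFYC. miR-99a rose beside let-7c (ratio 1.51), and miR-125a beside miR-99b (ratio 1.53). The rises of miR-23a beside miR-27a and miR-24, of miR-199a beside miR-214, of miR-29c beside miR-29b, and of miR-425 with miR-191 were below 2-fold under each of the other 4 scalings. miR-23b, beside miR-27b and miR-24, kept its rise under 3 of the 5.

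**Figure D2:**
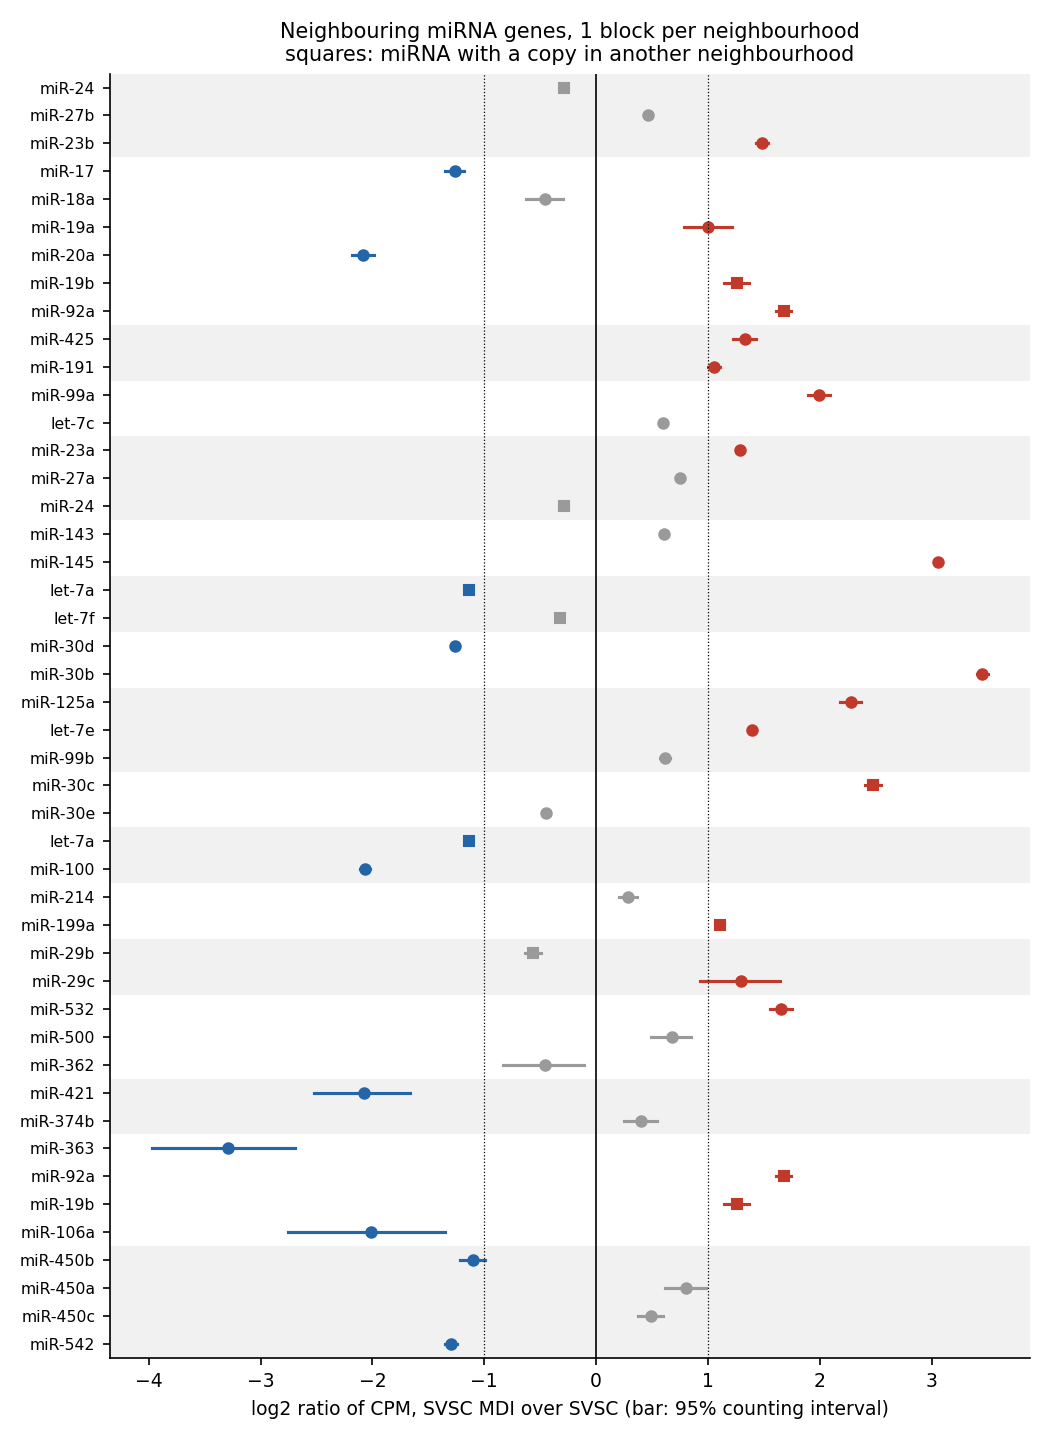
Log2 ratio of SVSC MDI to SVSC for each compared miRNA (y axis), in the 17 of 25 neighbourhoods that hold at least 1 call, 1 shaded block per neighbourhood, with dotted lines at 2-fold. Squares are miRNAs with a copy in another neighbourhood, red and blue mark rises and falls, and the blocks of miR-17-92, of miR-30d with miR-30b and of miR-363 with miR-106a hold both colours.

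Some miRNAs lie inside protein-coding genes in the Sscrofa11.1 annotation, and a few of these, chosen after their values were seen, are given here. miR-103 is encoded within PANK2 and PANK3 and miR-107 within PANK1, genes of coenzyme A synthesis, and both miRNAs fell. miR-148b lies in COPZ1 and miR-152 in COPZ2, which encode coatomer subunits, and these fell too. miR-140, known from cartilage, lies in WWP2 and fell from 40179 to 1877 reads, 3.07-fold (2.93 to 3.22). miR-378 was placed both in PPARGC1B, a coactivator of oxidative metabolism, and in BCAS3. It had 1174476 and 227887 reads, a ratio of 1.35, which were not divided between these loci. miR-28 in LPP rose 3.06-fold. The mRNAs of the host genes were not measured in this assay.

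Which part of a hairpin gave the reads changed for some miRNAs. The files divide hairpin reads into those on the annotated mature arm, those on the annotated star arm and the rest, and the rest holds the opposite arm wherever no star is annotated. Among 104 miRNAs with at least 200 hairpin reads in both libraries, the mature share moved by less than 10 percentage points in 82, rose by 10 points or more in 11 (10.6%) and fell by as much in 11 (10.6%). The median move was 0.06 points and the range -42.8 to 41.2 points. These shares do not depend on scaling. The arm with most reads was the same in all but 6 of the 104. All 11 gains were also gains, of any size, in the muscle pair, while 6 of the 11 losses were also losses there. The share of all 104 that gained or lost in the muscle pair is not given, so no agreement is read from these counts. Nearly all reads of miR-143 lay outside its annotated mature arm. In SVSC, all miRNAs had 12770543 mature reads, and 12767195 remained without miR-143, which had 4586638 hairpin reads. In SVSC MDI these numbers were 1480556, 1480028 and 1004338.

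Of the 5 losses with at least 1000 hairpin reads in both libraries, 3 were in the miR-30 family. miR-30e had 70.4% of its hairpin reads on the mature arm in SVSC and 27.6% in SVSC MDI, against 67.4% and 74.9% in IVSC and IVSC MDI. Its mature reads fell from 100215 to 4140, 3.47-fold (3.37 to 3.58) in CPM, and its remaining reads numbered 42140 and 10852, a ratio of 1.80 (1.76 to 1.83). The total of miR-30e therefore joined a fall of its mature arm with a larger share of the rest of the hairpin. miR-30d went from 97.7% to 87.3% mature, with mature reads that fell 2.67-fold and other reads at a ratio of 2.35. The ratio of its other reads was below 2-fold under each of the other 4 scalings, between 1.65 and 1.78. In miR-30a, which went from 89.1% to 71.6%, mature reads rose 4.18-fold and the other reads 13.5-fold. In the muscle pair miR-30a stood at 92.8% and 93.1%.

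Losses outside that family included miR-331 (58.9% to 20.3%), miR-335 in the imprinted gene MEST (50.5% to 23.1%), miR-7 (91.9% to 70.3%) and miR-214 (91.8% to 74.4%). The muscle pair had nearly the same shares for miR-7 (92.2% and 64.3%) and miR-214 (92.1% and 73.5%). miR-331 rested on 627 and 330 hairpin reads, so its share was among the less precise.

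The gains included miRNAs for which the mature arm overtook the rest of the hairpin. miR-15a, of the cell-cycle restraining miR-15 and miR-16 family, went from 20.7% to 61.9% mature, with 26.8% and 52.7% in the muscle pair. Its other reads fell from 10657 to 380, 4.02-fold (3.63 to 4.47), while its mature reads were at a ratio of 1.54. miR-221, a regulator of the cell-cycle inhibitor p27 that is reported to inhibit adipogenesis, went from 36.6% to 67.3%. Its other reads fell from 15490 to 579, 3.84-fold (3.53 to 4.18), and its mature reads stood at 8950 and 1190, a ratio of 0.927. The muscle pair had 22.1% and 67.2% for miR-221. For miR-22 the share went from 30.6% to 51.5%, and for miR-146b from 7.87% to 33.6%.

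In miR-125b the parts moved in opposite directions. Its mature share went from 75.9% to 95.5%, its mature reads rose 2.93-fold (2.84 to 3.01) and its other reads fell 2.32-fold (2.07 to 2.62), and both calls held under all 5 scalings. Opposite calls of mature and other reads were also made for miR-30d, under scaling to miRNA reads alone, and for miR-340, under DESeq2 size factors and with miR-21 left out of the total. For miR-140 the annotated star arm held most reads, 92.1% in SVSC and 73.1% in SVSC MDI. Star reads of miR-140 fell from 37018 to 1373, 3.87-fold (3.66 to 4.08), while its mature reads stood at 2736 and 384, a ratio of 0.978. The fall of miR-140 was therefore carried by the arm annotated as star.

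**Figure D3:**
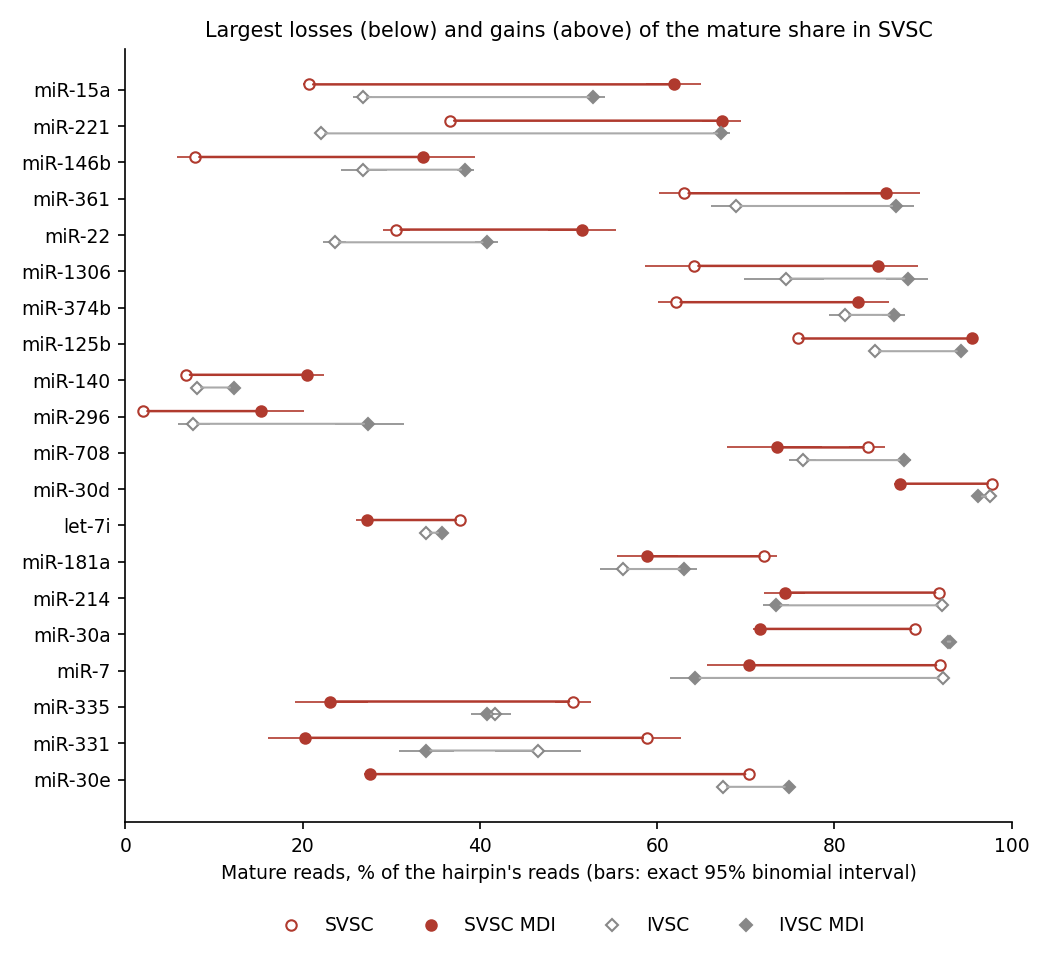
Reads on the annotated mature arm as a percent of hairpin reads (x axis) for the 10 largest gains, above, and the 10 largest losses, below, among 104 miRNAs. Open circles are SVSC, filled circles SVSC MDI, and grey diamonds IVSC and IVSC MDI; miR-15a gained most, from 20.7% to 61.9%, and miR-30e lost most, from 70.4% to 27.6%.

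Mature reads were also divided into those equal to the annotated sequence and variants of it. Over all miRNAs the exact share was 38.3% in SVSC and 62.3% in SVSC MDI, and this difference rested on miR-21, since without it the shares were 77.0% and 72.3%. Among 88 miRNAs with at least 200 mature reads in both libraries, the exact share rose by 10 points or more in 7 (7.95%) and fell by as much in 22 (25%), with a median move of -1.20 points. All 7 gains were also gains in the muscle pair, and 18 of the 22 losses were also losses. How many of all 88 rose or fell there is not given, so these overlaps have no background to be read against. Without miR-21, the exact share summed over miRNAs was 79.1% in IVSC and 70.2% in IVSC MDI.

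miR-21, abundant in proliferating and fibrotic cells and reported to act on TGFBR2 in adipogenesis, had 1110103 exact and 6750204 variant reads in SVSC. In SVSC MDI it had 338116 exact and 334709 variant reads. Its exact share thus went from 14.1% to 50.3%, against 18.8% and 33.9% in the muscle pair. The variants fell 2.89-fold (2.88 to 2.90) under scaling to miRNA reads and further under the others. Exact reads had a ratio of 2.12 (2.11 to 2.13) under that scaling and 1.50 under TMM, so the share moved under every scaling but a rise of the exact form did not hold. Exact reads were not lower in SVSC MDI under any of the 5 scalings, so the lower total of miR-21 came from its variants. miR-10a showed the largest gain, from 38.4% to 78.1% exact, with variants that fell 2.89-fold (2.59 to 3.22). miR-23a went from 43.3% to 61.1% and miR-32 from 62.6% to 80.2%.

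Losses of exact share were more frequent. miR-708 went from 83.6% to 42.9%, miR-19b from 83.6% to 48.7% and miR-19a from 71.5% to 51.6%. The muscle pair gave like values for miR-708 (69.6% and 46.1%) and miR-19b (77.3% and 50.1%). miR-27a, a repressor of PPARG, went from 94.7% to 75.5%: its exact reads stood at 104359 and 20408, a ratio of 1.36, while its variants rose from 5873 to 6612, 7.85-fold (7.58 to 8.13). In the muscle pair miR-27a stood at 85.3% and 84.1%. miR-378 went from 91.4% to 80.4%, with variants that rose 3.07-fold (3.03 to 3.10), and it was at 89.4% and 88.6% in the muscle pair. For both miRNAs, the variant rise was at least 2-fold under all 5 scalings.

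**Figure D4:**
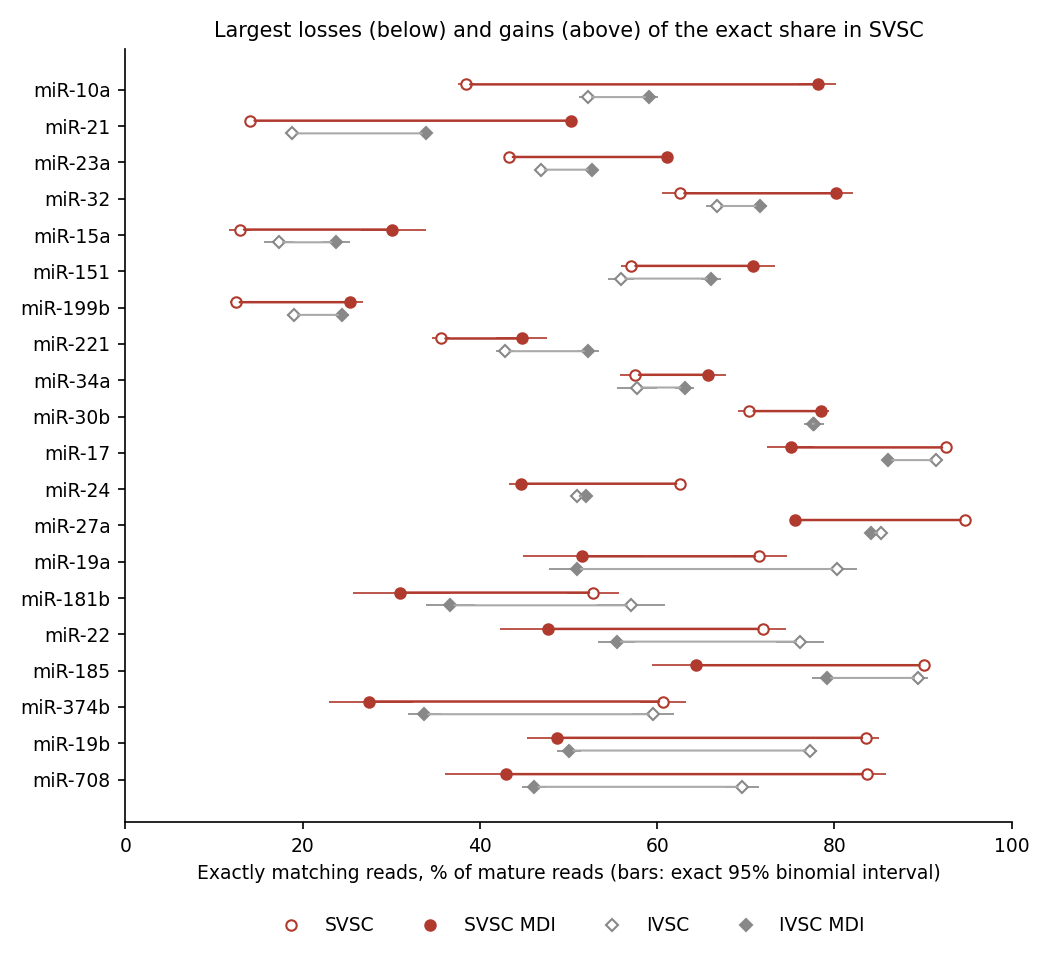
Reads equal to the annotated mature sequence as a percent of mature reads (x axis) for the 10 largest gains, above, and the 10 largest losses, below, among 88 miRNAs. Open circles are SVSC, filled circles SVSC MDI, and grey diamonds IVSC and IVSC MDI; miR-10a and miR-21 gained most, and miR-708 lost most, from 83.6% to 42.9%.

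Other RNA sources were scaled to all reads in named features, so their ratios are 1.40 times lower than they would be per miRNA read. Of all reads as listed, hairpins took 75.4% in SVSC and 55.0% in SVSC MDI, Ensembl transcripts 15.7% and 38.5%, Rfam 8.49% and 6.16%, and the piRNA database 0.502% and 0.332%. Most of the Rfam reads lay in its miRNA families, which alone took 7.41% of all reads in SVSC and 5.58% in SVSC MDI. The larger Ensembl share came from ENSSSCT00000020202 and a partner transcript with nearly the same counts, neither of which has a read that matches it alone. ENSSSCT00000020202 had 1523639 and 943439 reads and rose 3.08-fold (3.07 to 3.09), and in the muscle pair it had 1562481 and 1016704. Without this pair, Ensembl transcripts took 3.81% and 1.97% of the reads. The files give no gene names for these transcripts.

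Among 429 features, namely Rfam entries outside the miRNA families and Ensembl transcripts of any kind, 37 (8.62%) rose and 230 (53.6%) fell. Per miRNA read the same counts were 131 and 211. Many entries share reads, since 196 of the 429 had no read of their own. Entries of tRNA made up 243 of the 429, and 2 of these rose and 155 fell. Of these tRNA entries, 158 had no read of their own, so the count of falls repeats shared reads. With Rfam entries joined by family, as below, 26 features rose and 57 fell. Of the 135 Ensembl transcripts among the 429, 23 rose and 47 fell. Since these transcripts carry no gene names, any that are miRNA genes could not be left out. ENSSSCT00000020664, the third most abundant, fell from 530485 to 33434 reads, 3.19-fold (3.15 to 3.22). ENSSSCT00000020593 rose from 686 to 1048 reads, 7.61-fold (6.90 to 8.39), where the muscle pair had 9754 and 1631. ENSSSCT00000019753 fell from 12594 to 764 reads, 3.31-fold (3.08 to 3.57), where the muscle pair had 4423 and 16883.

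To count a shared read once, Rfam entries were joined by family. The total used for scaling still held shared reads as listed. With these counted once in the total too, every ratio of SVSC MDI to SVSC would be 1.15 times higher. Of 21 families other than miRNAs that reached 10 CPM of all reads, 3 (14.3%) rose and 10 (47.6%) fell. Y RNA, a partner of the Ro protein, had 78 reads in SVSC and 205 in SVSC MDI and rose 13.1-fold (10.0 to 17.2). 7SK, the scaffold that holds the elongation factor P-TEFb inactive, had 70 and 171 reads and rose 12.2-fold (9.16 to 16.3). With entries summed as listed, so that shared reads count more than once, the ratio was 6.70 for Y RNA (751 and 1010 reads) and 23.9 for 7SK (106 and 508 reads), so their size and order rest on the counting. Both also rose in the muscle pair with shared reads counted once, from 83 to 475 and from 86 to 825 reads. The third family, lsrR, is named after bacterial genes and had 1 and 562 reads, a ratio of 2798 (500.2 to 110725), with 8 and 266 reads in the muscle pair. The origin of its reads was not examined.

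Fragments of tRNA fell from 45073 to 2964 reads, 3.05-fold (2.94 to 3.17), and those of small-subunit rRNA from 16039 to 1088 reads, 2.96-fold (2.78 to 3.15). With shared reads counted once in the total as well, the tRNA fall was 2.65-fold (2.56 to 2.75). 5S rRNA stood at 686 and 126 reads, a ratio of 0.915, and 5.8S rRNA at a ratio of 0.643. Fragments of U2, the spliceosomal RNA that pairs with the branch point, fell 2.83-fold. In the muscle pair tRNA had a ratio of 0.681 and U2 of 0.772, and small-subunit rRNA fell.

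The small nucleolar RNAs of the C/D class guide 2′-O-methylation of rRNA. Of 9 such families compared, 6 fell and none rose. SNORD52 fell from 3808 to 64 reads, 11.9-fold (9.34 to 15.6), and SNORD78, which lies in the growth-arrest gene GAS5, from 522 to 6 reads, 17.5-fold (7.97 to 47.8). SNORD96, SNORD29, SNORD12 and SNORD51 fell between 2.33-fold and 5.01-fold. SNORD30 had 394 and 125 reads, a ratio of 1.58, so the class did not move as 1 group. Scaled to miRNA reads, the fall of SNORD51 was below 2-fold (ratio 0.601) and the ratio for SNORD30 was 2.21. SNORD52 and SNORD96 also fell in the muscle pair, whereas SNORD12 rose there from 639 to 1663 reads.

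**Figure D5:**
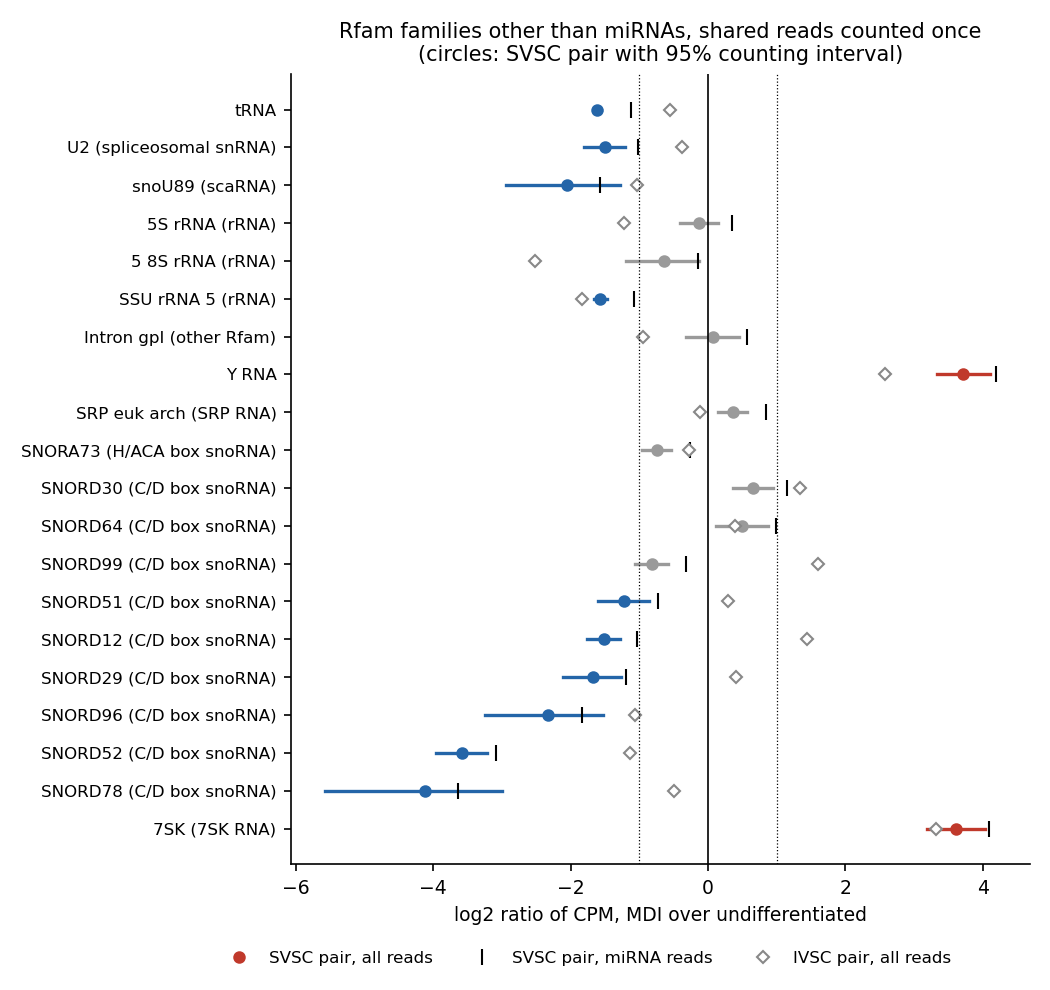
Ratio of SVSC MDI to SVSC (x axis, log scale) for 20 Rfam families other than miRNAs, scaled to all reads in named features as listed, with shared reads counted once in the family counts only. Circles with 95% counting intervals are red for rises, blue for falls and grey for neither, black ticks give the ratio per miRNA read and open diamonds the ratio in the muscle pair; Y RNA and 7SK lie furthest to the right and SNORD78 furthest to the left, and lsrR (1 and 562 reads) is left out.

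Of 73 entries of the piRNA database, 15 (20.5%) rose and 34 (46.6%) fell, and per miRNA read 20 rose and 18 fell. Such entries can be fragments of other RNAs, and 23 of the 73 had no read of their own. PIR84651 had 1359 reads and, in the shallower library, 876, and rose 3.21-fold (2.94 to 3.50), and had 990 and 4854 reads in the muscle pair. PIR269151 had 0 and 142 reads, 236-fold higher with 3 reads standing in for the 0 of SVSC, and no read in either library of the muscle pair. PIR64386 fell from 7895 to 273 reads, 5.81-fold (5.15 to 6.58), and PIR64428 from 10275 to 406 reads, 5.08-fold (4.60 to 5.63).

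The labelled cell type was set against miRNA markers. Of the perivascular pair, miR-143 was among the most abundant miRNAs in both libraries, while miR-145 had 895 CPM in SVSC and 7440 CPM in SVSC MDI. The 6 perivascular and mesenchymal markers summed to 262137 CPM in SVSC and 409218 CPM in SVSC MDI. miR-143 alone gave 255706 and 390300 CPM of these sums. Of 8 skeletal muscle markers, 6 were matched by name and summed to 1856 and 891 CPM. Within them miR-1 fell from 32606 to 1700 reads, 2.75-fold (2.62 to 2.89), while miR-133a rose from 388 to 511 reads, 9.18-fold (8.03 to 10.5). No hairpin name matched miR-208a or miR-208b. Endothelial miR-126 stood at 52.6 and 63.7 CPM. Of 5 blood cell markers, miR-142 and miR-451 summed to 7.97 and 21.8 CPM, and miR-223, miR-150 and miR-144 were not matched by name. Of the neuronal list, miR-9 and miR-128 summed to 45.4 and 297 CPM, miR-124a had 0 and 1 read, and miR-137 was not matched by name. Liver miR-122 had 432 and 5 reads, and of 8 epithelial markers 1 was matched by name, miR-205 with 7 and 9 reads. The part of these other cell types in the ratios above was not tested.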

How the data were processed

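Small RNA of 4 pig cultures was sequenced, 1 library in each group, from about 10 µg of RNA, with fragments of 16 to 35 nt, 12 PCR cycles and 36 read cycles. Per the file headers, the authors deposited read counts per feature from 4 resources, with columns for exact mature, mature, star, other and total reads. The sources used here do not give the aligner, mismatches or adapter trimming, and the submitters' processing notes name mm9 without a role. SVSC MDI holds 1 unnamed entry, the sum of a column, which was left out, and SVSC holds 3 entries without a resource name and 11 with a blank cell. The groups follow the sample titles.

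From these deposited counts, hairpin copies of a miRNA were counted once (the copy with most reads, to which reads matching only another copy were added) and scaled to CPM of miRNA reads, and other features to CPM of all reads in named features. For ratios, 3 reads stood in for a count of 0. Features at 10 CPM or more in at least 1 library were compared and called at 2-fold or more with a 95% interval that excludes 1. Named miRNAs are the 15 most abundant, the 15 largest rises and falls at 100 CPM or more, called list members and the 10 largest gains and losses of each share; neighbours, host genes and Rfam families with values are named beyond this rule, chosen after their values were seen. Members and lists were chosen with earlier results of these data known. Python 3.11.15, SciPy 1.17.1, pandas 2.3.3, NumPy 2.4.6 and matplotlib 3.10.9 were used, with R 4.3.3, edgeR 4.0.16 (TMM factors only) and DESeq2 1.42.0 (size factors only). Calls were tried on simulated counts drawn from the SVSC shares with counting error alone. Variation between libraries was not simulated, so those counts cannot show how calls fare against it. Alternatives were the scaling, the minimum level, the counting of copies, the read column and thinning SVSC to the miRNA reads of SVSC MDI.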

Additional observations from a re-analysis of the deposited data

Results flagged for a closer look

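The following features moved by at least 2-fold in opposite directions after MDI in the subcutaneous and in the muscle-derived cultures. The difference between the cultures was not tested, since each group had 1 library. The muscle miRNA miR-133b had a log2 ratio of 3.61 in the SVSC pair (24 and 42 reads) and -2.06 in the IVSC pair (912 and 244 reads). miR-184 had 2.29 (74 and 52 reads) and -1.91 (239 and 71 reads). The low counts in the SVSC pair limit both. Among Ensembl transcripts, ENSSSCT00000020593 had 2.93 and -2.52, and ENSSSCT00000019753 had -1.73 and 1.99. A further 3 transcripts that were lower in the SVSC pair and higher in the IVSC pair had log2 ratios of -1.77 and 1.14, of -1.22 and 1.02, and of -1.01 and 1.12. The C/D box small nucleolar RNA family SNORD12 had -1.52 (2284 and 160 reads) and 1.44 (639 and 1663 reads).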

How the results depend on the processing

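No paired analysis was possible because each group had 1 library, and for the same reason no replicate could be left out. Scaling to all reads left 33 miRNA rises, and a minimum of 100 CPM left 20 falls. With mature reads alone miR-140 turned to a log2 ratio of 0.28, and with exact reads miR-140 (0.82), miR-20a (0.46) and miR-331 (-1.92) turned sign. For non-coding features, scaling to miRNA reads gave 131 rises, scaling to the own source 410 rises and 489 falls, no minimum 440 and 550, a minimum of 100 CPM 11 and 16, counting shared reads once in the total 69 rises, and joining Rfam families 57 falls. For piRNA entries, scaling to miRNA reads gave 18 falls, scaling to the own source 59 rises, no minimum 37 rises and 91 falls, and a minimum of 100 CPM 1 and 5. With shared reads counted once, the ratio of class shares was 0.461 for C/D box, 0.919 for H/ACA box, 0.421 for rRNA and 0.526 for spliceosomal RNA. Scaled to miRNA reads it was 0.698 for H/ACA box, 0.535 for scaRNA, 0.646 for spliceosomal RNA and 0.677 for tRNA, and with miRNA families left out it was 0.500 for C/D box. At 1000 reads or more, 4 gains and 5 losses of mature share and 10 losses of exact share remained by number. Without miR-21, the exact share over all miRNAs differed by -4.65 points and not by 24.0. This last setting, the families and the total with shared reads counted once were chosen after seeing the data, as was scaling the class shares to miRNA reads. The causes were not tested. SVSC MDI, with the fewest reads, limits the precision of low features.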
